A study of Mus musculus with 31 samples.

Results

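The FL HSC samples numbered 2 were compared with those numbered 1, within genotype, in the *Crebbp* experiment and then in the *Ep300* experiment. FL HSCs are the fraction of fetal liver that is enriched by sorting for hematopoietic stem cells. All pools whose labels give sample 1 or 2 of these experiments were taken, which made 8 pooled samples on 16 of the 31 arrays of the series, with 2 technical arrays for each pool. The study asked what loss of 1 allele of either histone acetyltransferase does to these cells. Here the genotypes served as the block, and the sample number was the contrast.

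Each experiment had 2 WT pools and 2 pools of heterozygotes, *Crebbp*+/- in one and *Ep300*+/- in the other, and the WT pools came from littermates. All mice were C57BL/6, fully back-crossed per the study's methods. Each pool combined 15 embryos at 14.5 dpc, whose liver cells had been viably frozen until enough of a genotype were at hand, and were then thawed and sorted as Sca-1+, Lin-, AA4.1+ and c-Kit++. Of its RNA, 12 ng was amplified with the Ovation kit and hybridized to Affymetrix mouse genome arrays. The heterozygotes lack 1 working allele in every cell, so the stem cells and their surroundings were both affected. The labels do not say which pools were thawed, sorted, amplified or hybridized together, so the sample number cannot be told apart from any such shared step. They also give no link between sample 1 of one experiment and sample 1 of the other, so that the sign of a difference cannot be carried across. The p-values rest on how far the WT and heterozygote differences between the numbers disagree, pooled over both experiments. With only 2 pools per number in an experiment, perhaps handled together, they do not measure the spread between independent pools.

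Fetal liver HSCs divide rapidly, and the sort also takes early progenitors that begin to transcribe myeloid and lymphoid genes. Immediate early genes such as *Fos*, *Egr1* and *Klf2* encode mainly transcription factors and feedback regulators that are induced within minutes by growth factors, stress or the handling of cells, with no need for new protein. Their transcripts are short-lived. A probe set of these arrays reads a stretch of a transcript, mostly near its 3' end, and many genes have several probe sets at different places along it.

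Of the markers used in the sort, *Kit* and *Cd93*, the gene of AA4.1, passed log2(100), the lowest intensity that the study's methods accept, in all 8 pools, and Sca-1 was not measured here. So did the HSC and progenitor genes *Cd34*, *Flt3*, *Gata2* and *Hoxa9*, whereas *Meis1* was below it, at 6.08, in *Crebbp*+/- sample 2. The erythroid markers (3), macrophage markers (5), endothelial markers (4) and mast cell markers (3) stayed below that minimum in all 8 pools. The 2 arrays of a pool correlated with r of 0.968 to 0.986 across the probe sets tested, and the SD of their difference ran from 0.31 to 0.46 on the log2 scale. In bulk samples such as these, fewer cells of a type and less RNA per cell cannot be told apart.

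Samples 1 and 2 of the *Crebbp* experiment differed in many transcripts, in the same direction in WT and *Crebbp*+/- cells. Of 12544 probe sets tested, limma called 2251 (17.9%), with 773 higher (6.16%) and 1478 lower (11.8%) in sample 2. Probe sets were called where the difference exceeded 1.5-fold and p, adjusted by Benjamini-Hochberg, was below 0.05. In comparison, the test of *Crebbp*+/- against WT in the same 4 pools called 65 probe sets (0.518%), 13 up and 52 down. Their adjusted p-values from limma ran from 0.0490 to 0.0498, at the edge of the limit, so the 2 counts do not compare the sizes of the effects. At an unadjusted p under 0.05 and over 1.5-fold, 1212 probe sets passed for genotype and 2654 for sample number. The WT and the *Crebbp*+/- difference between samples 2 and 1 correlated with r = 0.712 across probe sets, which are not independent replicates, and 78.2% of probe sets had the same sign in both. Over 1.5-fold in both genotypes were 527 probe sets up and 1100 down, and 25 moved by that much in opposite directions. The spread of the difference was larger in WT, with an SD of 0.62, than in *Crebbp*+/- cells, at 0.51.

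The number of calls rested on the shared estimate of the spread. With the 4 pools of the experiment alone, and equally without any 1 of the 4 *Ep300* pools, limma called 806, of which 795 were among the 2251. Without a WT pool the *Crebbp*+/- pair is the only contrast, and without a *Crebbp*+/- pool the WT pair is. Either is 1 pool against 1, with the spread taken from the *Ep300* pools alone. Calls from such fits therefore cannot show which *Crebbp* pools carry the difference.

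**Figure D1:**
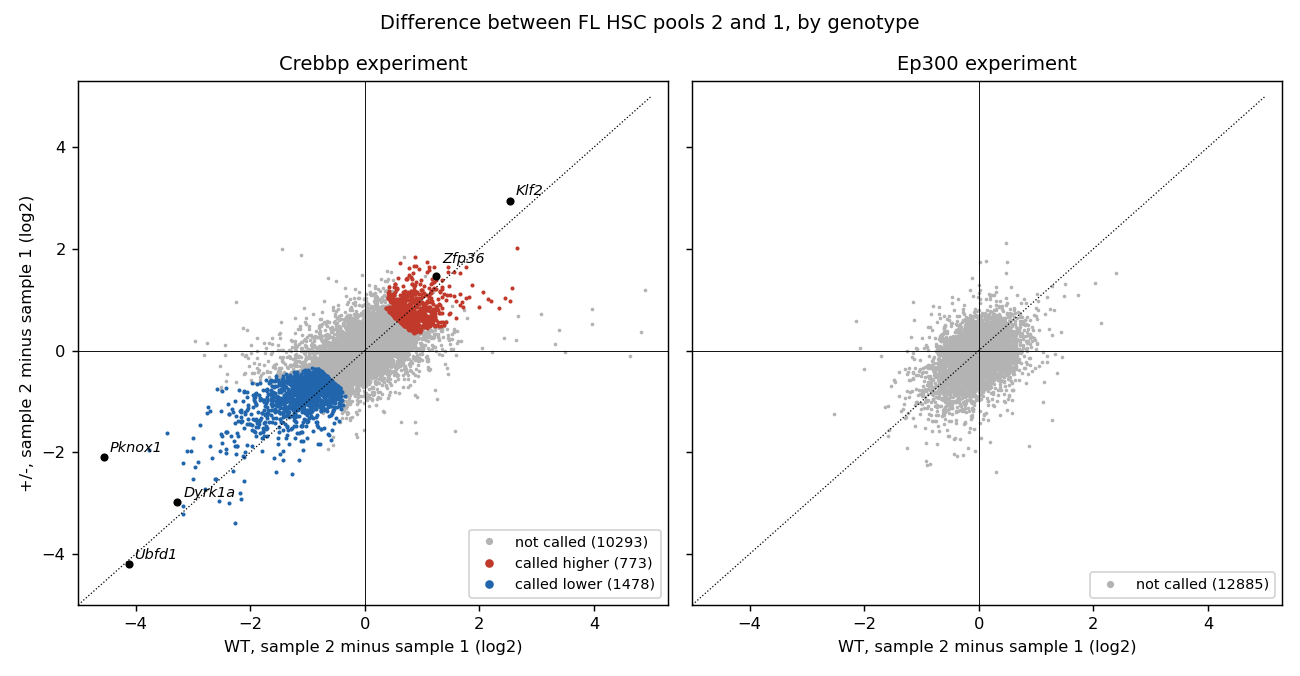
Sample 2 minus sample 1 in *Crebbp*+/- or *Ep300*+/- pools (y axis, log2) against the same difference in WT pools (x axis, log2), for the *Crebbp* experiment on the left and the *Ep300* experiment on the right. Each point is a probe set, red where called higher (773) and blue where called lower (1478). The *Crebbp* points stretch along the dotted line of equal differences (r = 0.712), whereas the *Ep300* points form a rounder cloud (r = 0.385) with no call.

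Immediate early genes were higher in sample 2 of the *Crebbp* experiment as a group. Of the 25 measured, 12 were called higher (48%) and 1 lower, beside 6.26% higher and 9.69% lower over the 7315 genes tested, each at its brightest probe set. Their median difference was 0.57, against 0.01 over all these genes, and 20 of the 25 were above 0. The median was 0.49 in WT and 0.65 in *Crebbp*+/- cells. Under every one of the 18 alternative settings run it lay between 0.49 and 0.94, but with WT sample 1 or 2 left out, with the second technical arrays alone or with no filter on low values no member was called.

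*Klf2*, a zinc finger factor that keeps lymphocytes and endothelium quiescent, had the largest called rise. It stood at 4.68 in WT and 4.18 in *Crebbp*+/- sample 1, and at 7.21 and 7.13 in the respective samples 2. Both samples 1 lay below log2(100), which is 6.64, and both samples 2 above it. The difference was 2.74 (standard error 0.15, adjusted p = 0.0148 from limma). Because the lower values lie near the background, the size of this change is not exact.

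*Rhob*, a small GTPase of the endosome, and *Zfp36*, which speeds the decay of cytokine mRNAs, rose next most among the immediate early genes. *Rhob* was at 8.29 and 7.85 in WT and *Crebbp*+/- sample 1 and at 9.49 in both samples 2, a difference of 1.42 (standard error 0.15, adjusted p = 0.0148). *Zfp36* went from 8.75 and 8.13 to 9.995 and 9.61, a difference of 1.36 (standard error 0.11, adjusted p = 0.0148). Both were picked by their small p, so that the 2 numbers did not overlap in either is no separate evidence.

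AP-1 subunits included genes called in both directions. *Fosb* rose by 1.18, from 8.82 and 7.76 to 9.65 and 9.28, and *Fos* by 0.73, from 12.14 and 11.52 to 12.54 and 12.58. The brightest probe sets of *Jun* and *Jund* differed by 0.54 and 0.40, both under the 1.5-fold limit, but a dimmer *Jun* probe set was called higher by 1.16. *Fosl2*, which forms AP-1 dimers with Jun proteins, was the member called lower, with a difference of -1.05. Its WT samples were at 8.30 and 6.78 and its *Crebbp*+/- samples at 8.50 and 7.93, so that WT differed more than *Crebbp*+/- cells.

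Among the other factors, *Egr1* rose by 0.76, from 11.72 and 11.39 to 12.30 and 12.34, *Klf6* by 0.61 and the nuclear receptor *Nr4a2* by 0.98. *Ier5*, an activator of heat shock genes, rose by 0.94. Other members called higher were the phosphatase *Dusp1*, by 0.76, the kinase *Sik1* by 1.13 and *Nfkbia*, which holds NF-kB in the cytoplasm, by 0.68. All 4 tested probe sets of *Nfkbia* and all 3 of *Klf6* were called higher. *Sik1* was the member of lowest level among these, with 1 pool of 4 reaching the minimum, WT sample 2 at 6.65. *Myc* (0.18), *Mcl1* (-0.22), *Btg1* (-0.25) and *Ier3* (-0.01) were not called at their brightest probe sets, although another of *Mcl1* was called lower by 0.84 and another of *Btg1* higher by 0.74.

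**Figure D2:**
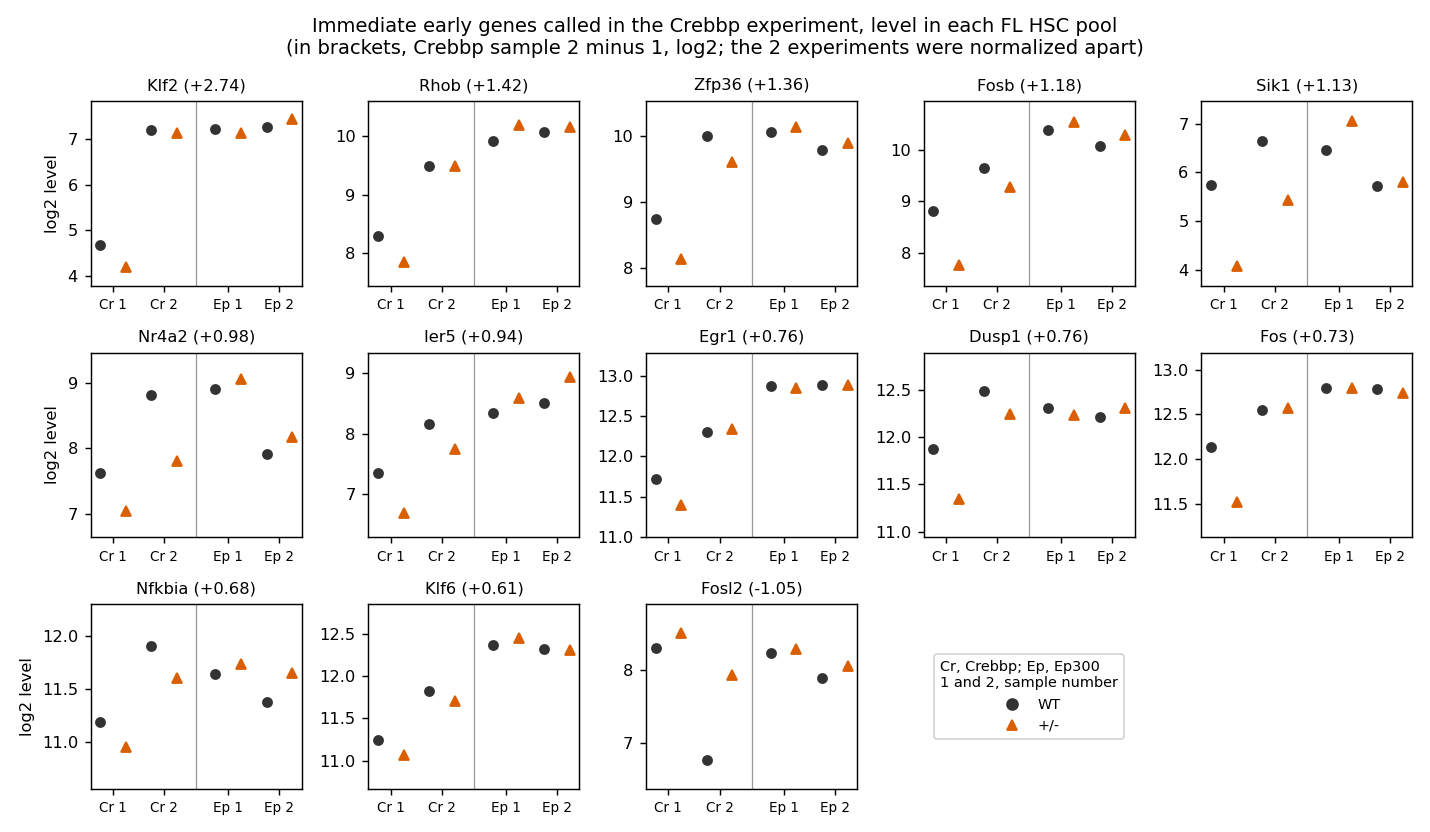
Level (log2) of the 13 immediate early genes called in the *Crebbp* experiment, in each of the 8 pools, with WT as circles and heterozygotes as triangles; the number in brackets is the *Crebbp* difference between samples 2 and 1. In the 12 genes called higher, sample 2 lies above sample 1 in both genotypes of the *Crebbp* experiment. The experiments were normalized apart, so levels can be compared only on 1 side of the grey line.

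The promoters of 3 of these genes are shown because they rose together. Each run is the 200 bases before the RefSeq gene start, on the gene's strand, in the GRCm38.p6 build, with matches to the motifs searched in capitals. *Klf2* is at chr8:72318862-72319061 on the plus strand, *Zfp36* at chr7:28379229-28379428 on the minus strand and *Fos* at chr12:85473690-85473889 on the plus strand.
Klf2: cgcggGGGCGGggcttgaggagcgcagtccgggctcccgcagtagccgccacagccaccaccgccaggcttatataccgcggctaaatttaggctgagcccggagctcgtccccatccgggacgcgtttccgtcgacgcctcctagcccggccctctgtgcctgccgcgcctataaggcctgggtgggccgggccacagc
Zfp36: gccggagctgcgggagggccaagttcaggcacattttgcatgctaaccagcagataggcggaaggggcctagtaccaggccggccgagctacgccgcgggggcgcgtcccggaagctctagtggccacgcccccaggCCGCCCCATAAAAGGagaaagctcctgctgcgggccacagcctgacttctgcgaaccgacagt
Fos: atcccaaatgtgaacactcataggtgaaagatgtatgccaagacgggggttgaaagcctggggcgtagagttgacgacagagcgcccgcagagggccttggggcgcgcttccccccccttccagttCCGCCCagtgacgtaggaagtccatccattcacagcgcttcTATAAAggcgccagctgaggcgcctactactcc
All 3 hold GGGCGG, the letters bound by Sp1, on 1 strand or the other, *Fos* holds the TATA letters TATAAA, and *Zfp36* holds a CArG box, the element bound by serum response factor, which overlaps its GGGCGG at the edge. The windows searched were 300 bases, from 250 before to 50 after the start, on both strands. GGGCGG was found in all 10 of the immediate early genes called higher that have a RefSeq promoter, and in 67.9% of the 6034 tested genes that have one. TATAAA was in 3 of the 10 and in 6.25% of the tested genes, CCAAT in 3 and 39.2%, the CRE letters TGACGTCA in 1 and 3.55%, and a CArG box in 1 and 1.29%. The AP-1 letters TGACTCA were in 0 of the 10 and in 2.77% of the tested genes. The motif of GATA-binding factors, AGATAA, was in 0 of the 10 as well, and in 5.7% of the tested genes. These are matches of letters, with no test, and the CArG box was added after the values had been seen.

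Beyond the immediate early genes, the largest rises were in genes of varied function. *Tubb2a*, a beta-tubulin, rose by 1.90, from 5.10 and 5.65 to 7.66 and 6.88. *Cotl1*, an actin-binding protein, rose by 1.71 (3 of its 4 tested probe sets called) and *Gsn*, the actin-severing gelsolin, by 1.59 (both of its probe sets). *H1f2*, a linker histone, rose by 1.37, from 8.17 and 8.01 to 9.52 and 9.41, and its other probe set by 1.10. *Tcf19* rose by 1.40, *Sf3a2*, a subunit of the U2 spliceosomal particle, by 1.59, *Gpsm1*, which binds G protein alpha subunits, by 1.39 and *Ptdss2*, a phosphatidylserine synthase, by 1.41. The standard errors of these values ran from 0.11 to 0.34, and their adjusted p-values from 0.0148 to 0.0338. In *Tubb2a*, *Cotl1*, *Gsn*, *Tcf19* and *Gpsm1*, however, both samples 1 lay below the minimum of 6.64. WT and *Crebbp*+/- sample 1 were at 6.31 and 5.85 for *Cotl1* and at 5.88 and 5.14 for *Gsn*. They were at 5.90 and 6.53 for *Tcf19* and at 6.33 and 5.48 for *Gpsm1*. *Ptdss2* lay below it in *Crebbp*+/- sample 1, at 6.48. The sizes of these rises are therefore not exact.

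Some myeloid and lymphoid genes were among the called rises. Of 19 measured granulocyte and monocyte genes, 3 were called higher (15.8%) and 0 lower, beside 6.26% and 9.69% of all genes, with a median of 0.07. *Csf1r*, the receptor for M-CSF, rose by 1.27, from 9.81 and 9.31 to 10.76 and 10.90. *Spi1*, the master factor PU.1, rose by 0.75, from 6.47 and 6.77 to 7.36 and 7.40, and *Cebpa*, which drives granulocyte commitment, by 0.60. *Mpo* (0.07), *Prtn3* (0.26) and *Irf8* (0.49) were not called. Of the macrophage list only *Csf1r* and the lysosomal protease *Ctss* were measured, and both were called higher. The defining macrophage markers *C1qa*, *C1qb*, *C1qc*, *Adgre1* and *Cd5l* were at most 3.96 in any pool.

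Of 7 measured lymphoid genes, 3 were called higher (42.9%) and 1 lower (14.3%), beside the same 6.26% and 9.69%, with a median of 0.17. *Ebf1*, which sets the B cell program, was at 5.17 and 7.31 in WT and *Crebbp*+/- sample 1 and at 7.51 and 8.14 in samples 2, a difference of 1.59 (standard error 0.39, adjusted p = 0.0452). *Il7r*, the interleukin 7 receptor, rose by 1.08 and *Ighm* by 1.00. In WT sample 1 all 3 lay below the minimum of 6.64, with *Il7r* at 6.55 and *Ighm* at 6.62. Their *Crebbp*+/- pool means were above it. For *Ighm*, however, the 2 arrays of *Crebbp*+/- sample 1 disagreed, at 8.405 and 6.62. Sample 2 was at 7.71 and 8.46 on its first and second arrays. In *Crebbp*+/- cells *Ighm* thus fell on the first arrays and rose on the second, and its pool means there carry no direction. Where all 4 pools had to reach the minimum, 4 lymphoid genes were left. Of these, 0 were called higher and 1 lower, with a median of -0.22. The called lymphoid rises thus rested on genes below the minimum in WT sample 1. The ranges of *Ebf1* and of *Il7r* came close, since *Crebbp*+/- sample 1 lay almost as high as WT sample 2. *Notch1*, the receptor that directs T cell fate, fell by 1.29, from 10.82 and 11.13 to 9.31 and 10.06.

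Genes listed for HSC regulation and the sort showed no called rise. Of the 22 measured, 0 were called higher and 5 lower (22.7%, beside 9.69% of all genes), and their median was -0.17. That median was -0.0755 without WT sample 1 or 2, and -0.295 without either *Crebbp*+/- pool. *Gata2*, which maintains HSCs, was at 11.29 in both samples 1 and at 10.12 and 10.53 in samples 2, a difference of -0.97 (standard error 0.14, adjusted p = 0.0189). Its other probe set fell by 1.14. *Cd48* fell by 0.76, *Mycn* by 0.59, *Procr*, the protein C receptor used to sort HSCs, by 0.67 and *Meis1*, a partner of Hox proteins, by 0.66. The list also holds surface proteins, and *Cd48* was not a marker of this sort, so the 5 are not a count of HSC regulators. For *Procr* and *Meis1* the 2 numbers overlapped across genotypes, and the other probe sets of *Meis1* (0.10 and 0.47) were not called. *Kit* (-0.16), *Cd34* (0.20), *Cd93* (-0.18), *Flt3* (0.28) and *Hoxa9* (0.15) were not called, although a dimmer *Cd93* probe set fell by 0.82. *Emcn*, a sialomucin of endothelium and HSCs, fell by 1.16 as the only call among 8 endothelial and stromal genes, whose median was 0.34. *Slc18a2*, a monoamine transporter, fell by 0.82 as the only call among 6 megakaryocyte and mast cell genes (median -0.18).

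Of 14 p53 targets, 0 were called higher and 4 lower (28.6%, beside 9.69% of all genes), 2 were above 0, and the median was -0.41. *Mdm2*, the ubiquitin ligase that restrains p53, was at 10.57 and 10.65 in samples 1 and at 9.53 and 9.75 in samples 2, a fall of 0.97 on the log2 scale (adjusted p = 0.0160). *Tigar*, a regulator of glycolysis, differed by -0.86, *Aen*, an apoptotic nuclease, by -0.59 and *Zmat3*, an RNA-binding protein, by -1.62. *Pmaip1* (0.21) and *Gadd45a* (-0.06) were not called. Without WT sample 1 or 2 the median of the list was -0.25, with 0 members called.

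Growth genes were divided. In mitosis, 4 of 35 genes were called higher (11.4%, beside 6.26% of all genes) and 0 lower (beside 9.69%), with a median of 0.11: *Kif2c*, a microtubule depolymerase, by 1.26, *Cdca8*, a part of the chromosomal passenger complex, by 0.88, and *Cenpf* and *Nek2* by 0.65 and 0.81. *Birc5*, *Tpx2* and *Prc1*, of the same list, had differences of -0.34, -0.38 and -0.52 and were not called. Of 33 DNA replication genes, 2 were called higher (6.06%) and 1 lower (3.03%): the helicase subunit *Mcm5* rose by 0.81 and the licensing factor *Cdt1* by 0.74, whereas the thymidine kinase *Tk1* fell by 0.61. Splicing factors had 1 call higher (1.79%) and 6 lower (10.7%) of 56 at their brightest probe sets, the latter near the share of all genes. Lower were the U2 auxiliary factor *U2af1* (-0.75), the kinases *Clk1* (-0.71) and *Clk4* (-0.59) and *Mbnl1* (-0.64), among others. *Clk4* differed by -2.62 at its other probe set. Over the 18 alternative settings, 0 to 28 of this list were called lower. Of 32 cytosolic ribosomal protein genes 0 were called at their brightest probe sets, and their differences ran from -0.36 to 0.23. The 15 heat shock genes had no call at their brightest probe sets either, and ran from -0.30 to 0.37. Over all 29 tested probe sets of the heat shock list, 3 were called higher and 1 lower. Of the 3 probe sets of *Hspa1b*, 2 were called higher.

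**Figure D3:**
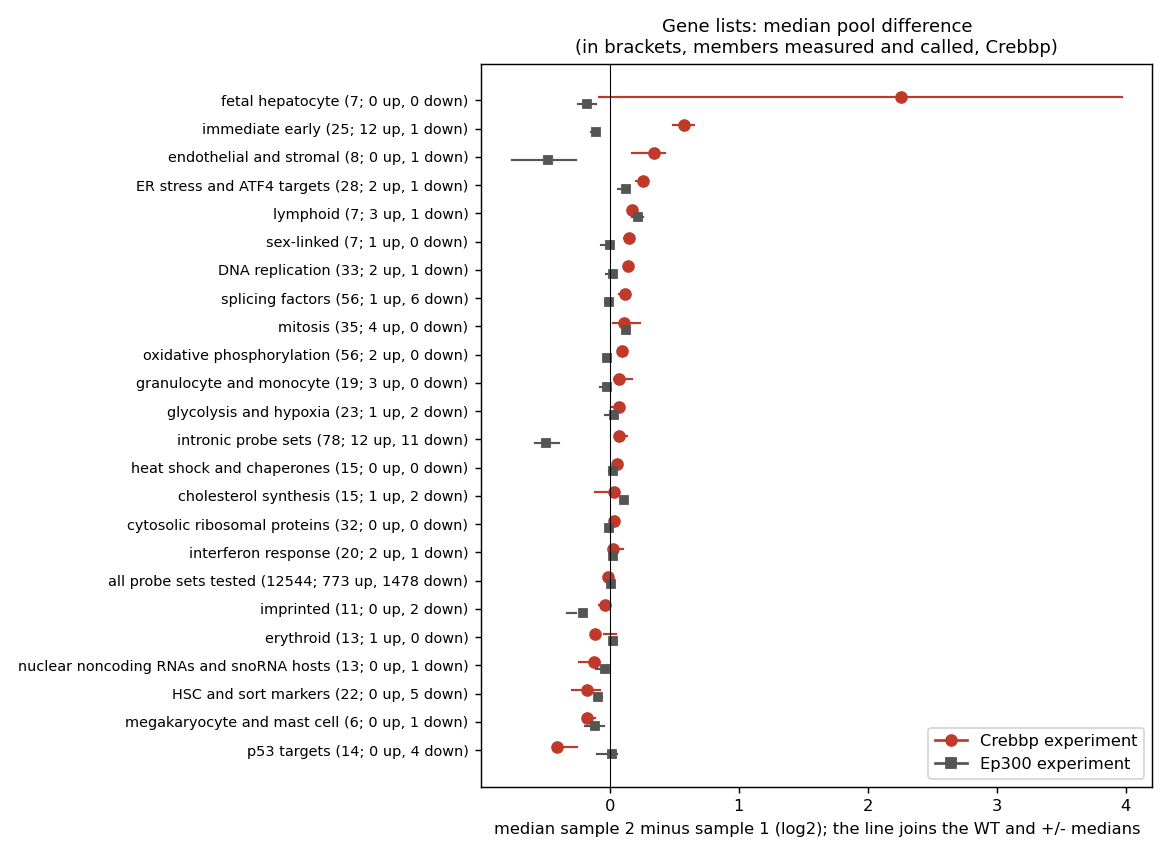
Median difference between samples 2 and 1 (x axis, log2) for each gene list with at least 5 members measured (y axis; in brackets, the number measured and the calls in the *Crebbp* experiment), with the *Crebbp* experiment as red circles, the *Ep300* experiment as grey squares, and lines joining the WT and heterozygote medians. Immediate early genes stand at 0.57 and p53 targets at -0.41 in the *Crebbp* experiment with short lines, and the fetal hepatocyte genes at 2.26 with a line that reaches from WT at 3.97 to *Crebbp*+/- at -0.08.

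Of the 7 fetal hepatocyte genes measured, 4 differed widely between the WT pools. *Alb* was at 2.43 in WT sample 1, 7.06 in WT sample 2, 5.85 in *Crebbp*+/- sample 1 and 5.74 in *Crebbp*+/- sample 2. *Afp* was at 3.68, 8.50, 6.72 and 7.08 in the same order, *Ttr* at 2.32, 7.21, 5.82 and 7.01, and *Apoa1* at 3.28, 7.25, 5.59 and 6.404. WT sample 1 was the lowest pool for each of the 4 genes and WT sample 2 the highest, and the *Crebbp*+/- pools lay between them. Of these 4 markers, 0 reached log2(100) in WT sample 1, 4 in WT sample 2, and 1 and 2 in *Crebbp*+/- samples 1 and 2. The other measured genes, *Hnf4a*, *Dlk1* and *Krt18*, reached log2(100) on all 8 *Crebbp* arrays and moved little. *Hnf4a* was at 9.44 and 9.15 on the arrays of WT sample 1 and at 9.465 and 9.445 on those of WT sample 2. *Dlk1* was at 8.11 and 7.96, then at 8.15 and 7.95. No gene of the list was called at its brightest probe set, and over all its 12 tested probe sets 1 was called lower.

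Many of the largest falls were in 1 probe set of a gene and not in its others. *Ubfd1* was at 6.65 and 8.01 in WT and *Crebbp*+/- sample 1 and at 2.52 and 3.81 in samples 2, a difference of -4.16 (standard error 0.31, adjusted p = 0.0148), but its other tested probe sets differed by -0.45 and -0.28 and were not called. Since samples 2 lay far below log2(100) here, as in *Dyrk1a*, *Bcr* in WT, *Pknox1* in WT and *Rab11fip1*, the sizes of these falls are not exact. *Dyrk1a*, a dual-specificity kinase, differed by -3.13 at a probe set that fell from 6.31 and 7.01 to 3.04 and 4.03. Its brightest probe set, at 11.18 to 11.93, differed by -0.45, and another was called higher by 0.87. *Bcr* differed by -2.86, -0.02 and 0.46 at its 3 probe sets. *Gdi2*, which recycles Rab GTPases, differed by -2.56 at 1 probe set and between -0.48 and 0.44 at the other 5. *Pik3r1*, the regulatory subunit of PI3 kinase, was lower by 2.69 and 0.89 at 2 of its 3 probe sets. *Pknox1*, *Rab11fip1* and *Poglut3*, with 1 probe set tested, differed by -3.32, -3.11 and -2.75. *Ide* differed by -2.69, with 3 of its 4 tested probe sets called lower, *Rpa2* by -2.55 and *Dusp7* by -2.54. Only the 2 probe sets of *Clk4* and the 2 of *Dusp7* were all called lower among the genes named here with more than 1.

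Probe sets of a gene parted over the whole array as well. Of 2540 genes with at least 2 tested probe sets, 716 had one called lower, and in 49 of these (6.84%) all were. Of 322 with one called higher, all were in 24 (7.45%). Of these genes' brightest probe sets 9.02% were called lower and 6.85% higher, and of their 3807 other probe sets 612 and 220 were. In 26 genes probe sets were called in both directions: *Irf2bp2*, a corepressor, differed by 1.502 at 1 probe set and by -1.05 and -1.61 at its 2 brighter ones, and *Gna13*, *Arf6*, *Hnrnpab* and *Tmtc3* were split too. These genes were chosen after their values were seen. Probe sets named with the suffix x_at, which share probes with other transcripts, had 17.1% called higher and 1.65% lower, while those with a plain at suffix had 4.39% and 13.5%.

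**Figure D4:**
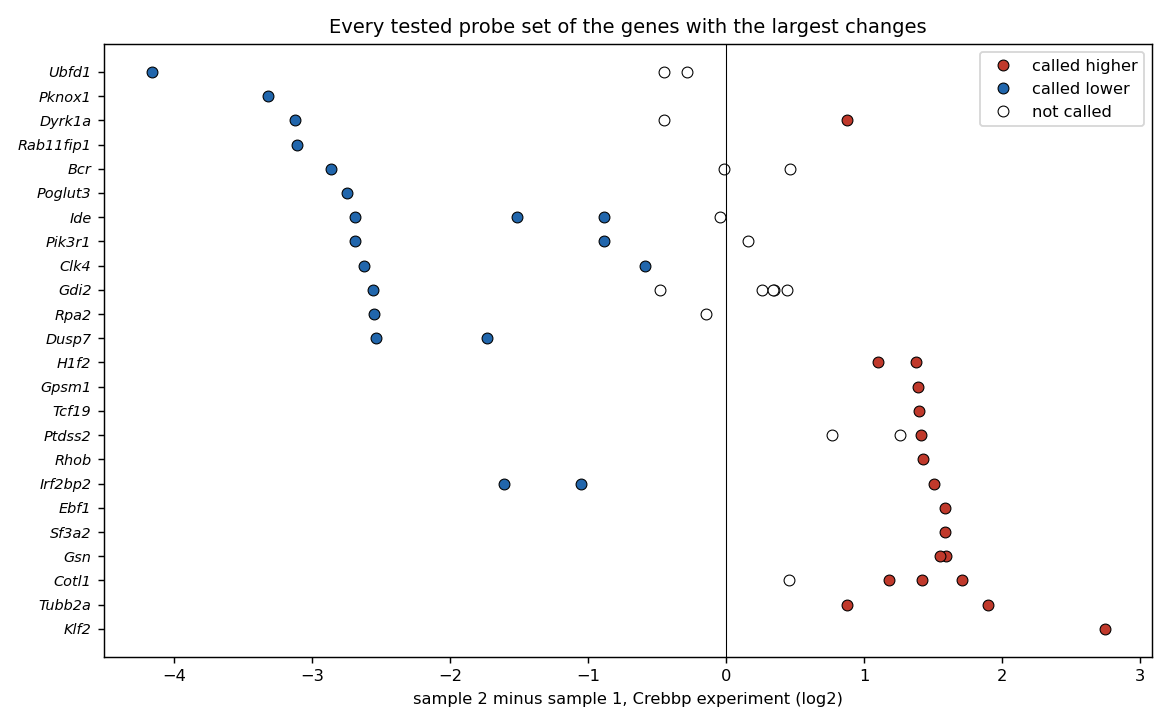
Difference between samples 2 and 1 in the *Crebbp* experiment (x axis, log2) at every tested probe set of the 24 genes with the largest called changes (y axis), filled red where called higher, blue where called lower and white where not called. Among the genes that fell, *Ubfd1* (-4.16, -0.45 and -0.28), *Bcr*, *Gdi2* and *Rpa2* combine 1 blue point far to the left with white points near 0, whereas both points of *H1f2* and of *Gsn* are red.

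The array's own control transcripts were read along their length as well. For *Gapdh*, the 5' probe set fell from 11.86 to 10.59 in WT and from 12.25 to 11.33 in *Crebbp*+/- cells, while the 3' probe set stood at 13.08 and 13.18 in WT and at 13.14 and 13.22 in *Crebbp*+/- cells. The excess of 3' over 5' was thus 1.22 and 0.89 in WT and *Crebbp*+/- sample 1, and 2.59 and 1.89 in samples 2. For actin the excess was 2.13 and 1.90 in samples 1 and 3.19 and 2.55 in samples 2. Samples 2 were above samples 1 in all 8 arrays, for both controls. In the *Ep300* experiment the *Gapdh* excess ran from 0.64 to 0.81 over the 4 pools and showed no such division. The 18S ribosomal control also moved: its 3' probe set was at 6.53 and 8.26 in WT samples 1 and 2, and at 6.00 and 6.47 in *Crebbp*+/- cells. The place of each probe set along its transcript was not used here, and the part of these end differences in the calls was not tested.

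**Figure D5:**
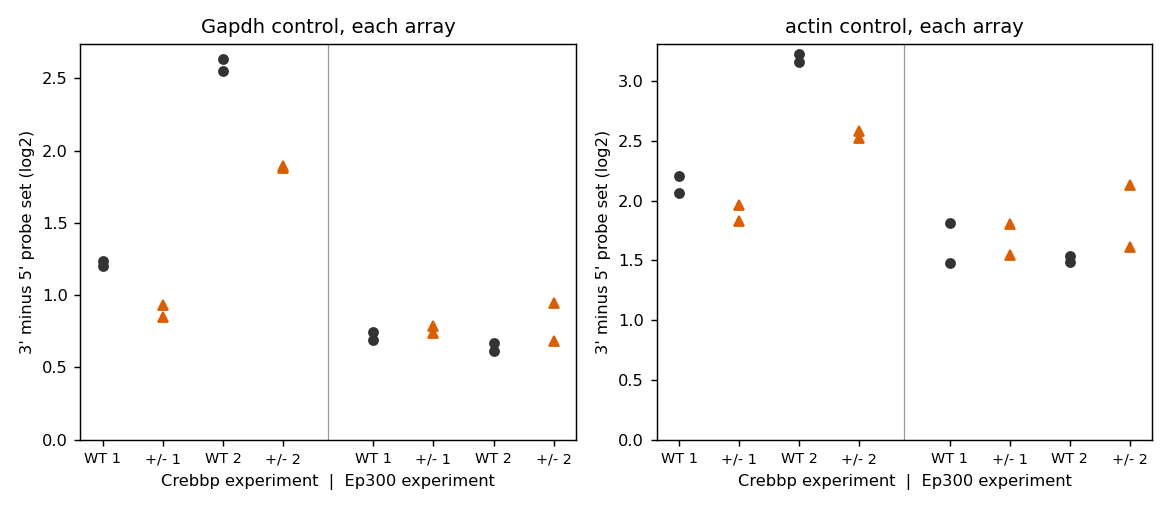
Level of the 3' minus the 5' control probe set (y axis, log2) for *Gapdh* on the left and actin on the right, for each of the 16 arrays, with WT as circles and heterozygotes as triangles. *Crebbp* samples 2 lie at 1.88 to 2.64 for *Gapdh*, above the *Crebbp* samples 1, at 0.85 to 1.24, and all *Ep300* arrays, at 0.61 to 0.95.

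The targeted genes did not part evenly between the pools either. The brightest of the 3 tested *Crebbp* probe sets was at 12.07 and 11.95 in WT and *Crebbp*+/- sample 1 and at 11.41 and 11.66 in samples 2, a difference of -0.47 that was not called. The next fell by 0.97 (adjusted p = 0.0251), and the dimmest differed by 0.14. *Ep300* was flat, with a difference of 0.04.

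The *Ep300* experiment was then asked whether the same genes vary. Between its samples 2 and 1, limma called 0 of 12885 probe sets (0%), with a smallest adjusted p of 0.224. At an unadjusted p under 0.05 and over 1.5-fold, 73 were higher (0.567%) and 302 lower (2.34%). The SD of the difference was 0.24, against 0.52 in the *Crebbp* experiment, and the WT and *Ep300*+/- differences correlated with r = 0.385 across probe sets. Over 1.5-fold in both genotypes were 38 probe sets up and 175 down.

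The probe sets called in the *Crebbp* experiment were mostly near 0 here. Of the 773 called higher there, 671 were tested, with a median *Ep300* difference of -0.03 and quartiles of -0.17 and 0.07. Of the 1478 called lower, 1457 were tested, with a median of 0.05 and quartiles of -0.06 and 0.17. At the unadjusted threshold, 8 of the 671 were higher and 26 lower, and 6 of the 1457 were higher and 32 lower, which is 1.19%, 3.87%, 0.412% and 2.2%. Over the 12097 probe sets tested in both experiments the shares were 0.504% and 1.97%. Across these probe sets the differences of the experiments correlated with r = -0.09.

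The difference between the experiments was tested too. With the numbers as labelled, limma called 809 probe sets as differing. With the sign counted, the *Crebbp* difference lay above the *Ep300* one in 276 and below it in 533. A value below it is not a smaller change: *Ubfd1* differed by -4.16 in the *Crebbp* and 0.20 in the *Ep300* experiment. With the *Ep300* numbers exchanged it called 0, at a smallest adjusted p of 0.0520 (941 and 1828 at the unadjusted threshold). The adjusted p-values of the 809 from limma ran from 0.04075 to 0.0499, so both forms lay at the edge of the limit. At the unadjusted threshold 3272 probe sets passed as labelled and 2769 with the numbers exchanged. The counts of 809 and 0 therefore do not show that the 2 forms differ.

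Immediate early genes had no call here, and since the sample numbers are not linked, both readings of the sign are given. Of 28 measured in the *Ep300* experiment, 7 were above 0 and the median was -0.11. At the unadjusted threshold 0 were higher and 3 lower, beside 43 and 81 of all 7392 genes tested there. With the *Ep300* numbers exchanged, 21 were not below 0, the median was 0.11, and 3 were higher and 0 lower. *Klf2* was at 7.23 and 7.14 in WT and *Ep300*+/- sample 1 and at 7.27 and 7.44 in samples 2. *Egr1* stood between 12.85 and 12.89 in the 4 pools, and *Fos* between 12.74 and 12.79. *Sik1* differed most of those named above, by -1.01, and *Nr4a2* next, by -0.94, and neither was called. *Nr4a2* was at 8.91 and 9.06 in samples 1 and at 7.91 and 8.17 in samples 2. The p53 targets had a median of 0.02 and the HSC and sort genes one of -0.09, with the signs turned if the numbers are exchanged.

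The strongest *Ep300* differences, none of them called, lay in other genes. The 5 that fell, picked by the smallest p, included *Selp*, an adhesion receptor of platelets and endothelium, at 7.02 and 6.72 in WT and *Ep300*+/- sample 1 and at 5.43 and 5.03 in samples 2. Its difference was -1.64 (standard error 0.11, adjusted p = 0.224 from limma). *Esam*, a junction protein of endothelium and HSCs, differed by -1.27, the basement membrane collagens *Col4a1* and *Col4a2* by -1.56 and -1.18, and the factor *Tfec* by -1.24. Those that rose were *Sema3d*, a guidance ligand, by 1.95, *Pawr* by 1.41, *Gli3*, a Hedgehog effector, by 1.27, *Pdzd4* by 0.91 and *Ifi27* by 0.88. In all 10 genes the 2 numbers did not overlap. The choice of genes that pass 1.5-fold in both genotypes largely fixes this, so it is no separate evidence. In the *Crebbp* experiment *Gli3* differed by -0.21 and *Col4a1* by 0.41, and *Sema3d* was called there, lower by 0.98.

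In some *Ep300* genes the 2 arrays of a pool disagreed, so their pool means carry no direction. *Alb* was at 2.76 and 2.86 in WT and *Ep300*+/- sample 1 on the first arrays but at 7.36 and 7.09 on the second, and in samples 2 at 2.87 and 2.79 on the first and 5.32 and 3.03 on the second. The pool means of all 4 hepatocyte markers were below log2(100), but of the 8 *Ep300* arrays 3 reached it for *Afp*, 2 for *Alb*, 1 for *Apoa1* and 0 for *Ttr*. *Eif2s3y*, a gene of the Y chromosome, had pool means of 9.94 and 9.88 in samples 1 and 9.09 and 8.88 in samples 2, but these joined opposite changes. On the first arrays it went from 9.48 to 10.11 in WT and from 9.57 to 9.69 in *Ep300*+/- cells, and on the second from 10.39 to 8.08 and from 10.19 to 8.06. *Kdm5d*, also of the Y chromosome, went from 8.005 to 7.90 and from 7.80 to 8.16 on the first arrays, and from 8.51 to 6.98 and from 8.74 to 7.81 on the second. *Xist*, the RNA of the inactive X, had pool means between 11.04 and 11.07. In the *Crebbp* experiment *Eif2s3y* differed by 0.21 and *Xist* by 0.02. *Igf2*, an imprinted growth factor, had a difference of -0.94 in the *Ep300* experiment, which was not called, and fell by 0.59 in the *Crebbp* experiment. Of 9 endothelial and stromal genes, 4 were lower in *Ep300* samples 2 at the unadjusted threshold, beside 81 of all 7392 genes tested there. The median of that list was -0.48.

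Intronic probe sets had no call in the *Ep300* experiment, but their differences lay mostly below 0. Of 71 measured probe sets that the study lists as intronic, 4 were above 0, with a median of -0.49 against 0.01 over all probe sets. At the unadjusted threshold 28 were lower, beside 2.34% of all probe sets. That count was 14 with the first technical arrays, 46 with the second and 3 with no genotype term. The median of the intronic probe sets was -0.39 in WT and -0.58 in *Ep300*+/- cells. It was -0.20 on the first technical arrays alone and -0.77 on the second, so its size rested on which array was read. The probe set in *Angpt1* was at 8.10 and 8.16 in samples 1 and at 7.005 and 7.15 in samples 2, and that in *Dock2* at 8.96 and 8.89 and at 8.11 and 8.12. The study chose this list, and that of mRNA probe sets below, from these same *Crebbp* FL HSC pools. It used a paired test of genotype after a filter on spread. The *Crebbp* samples are therefore no independent evidence for the direction of either list or for its share of calls. There, 12 of 78 (15.4%) were called higher and 11 (14.1%) lower between samples 2 and 1, beside 6.16% and 11.8% of all probe sets, with a median of 0.07. Of the 94 measured probe sets that it lists as reading mRNA, from the same contrast, 6 (6.38%) were called higher and 34 (36.2%) lower, with a median of -0.27. Probe sets with no gene listed in the annotation were lower in *Ep300* samples 2 as well, at 112 of 1041 (10.8%) by the unadjusted threshold, beside 1.62% of those with 1 gene.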

How the data were processed

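The authors deposited GCRMA output, 1 log2 intensity per probe set and array, which is corrected for background by probe sequence and normalized across arrays, apart for the *Crebbp* and the *Ep300* experiment. Its version and the scan order are not given in the sources used here. Precision is limited by the number of arrays, since these have no read depth.

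Of 45101 probe sets, 64 are controls and were not tested, and the 2 arrays of a pool were averaged on the log2 scale. Probe sets whose highest pool in the experiment reached log2(100) were tested in R 4.3.3 with limma 3.58.1. Lone pairs leave 1 residual degree of freedom per experiment, so the 8 pools shared a fit with an intercept, a genotype term and a sample number term for each experiment, with 2 residual degrees of freedom. All adjusted p-values are Benjamini-Hochberg values from limma. The script was tested on simulated data.

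Gene symbols came from the platform annotation, updated by gene ID: outside the controls, 34945 probe sets had 1 gene, 932 several and 9160 none or no entry. A list's gene is represented by its brightest probe set outside the intronic list. The genes named are the 12 largest called rises and falls that pass 1.5-fold in both genotypes, 3 per list by smallest p, the 5 strongest *Ep300* differences each way, *Crebbp*, *Ep300*, sex-linked genes and markers; others were named after their values were seen. The members and lists were chosen with earlier results of these data known. Promoters are RefSeq's, for GRCm38.p6. Alternatives covered the technical arrays, filter, scaling, fit and test, and leaving out each pool.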

Additional observations from a re-analysis of the deposited data

Results flagged for a closer look

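With the sample numbers as labelled, 809 probe sets differed between the experiments in their difference of samples 2 and 1 (limma, adjusted p under 0.05 and over 1.5-fold). With the *Ep300* numbers exchanged 0 did, and no label says which of the 2 forms pairs the numbers rightly. Thus 0 probe sets were called in both forms. The adjusted p-values of the 809 from limma ran from 0.04075 to 0.0499, and the smallest of the exchanged form was 0.0520. The 2 counts thus lie on either side of the limit by a narrow margin.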

How the results depend on the processing

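With 2 pools per number, the counts of calls move with the estimate of the spread. The 2251 calls of the *Crebbp* experiment became 806 with its 4 pools alone, 1139 with the first technical arrays, 0 with the second (999 higher and 1682 lower unadjusted), 0 with no filter (1211 and 2113), 1412 with no genotype term and 1137 with 1 probe set per gene, which was added after the data were seen. Leaving out a pool gave 0 to 2068. The paired t-test of the methods gave 558 unadjusted and 0 adjusted. For the *Ep300* difference (0 calls) the second technical arrays gave 1, linear averaging 1, the filter of the methods 274 and the unadjusted paired t-test 88. The filter of the methods keeps probe sets by their spread over pools, so it tests fewer and more variable ones. The 65 genotype calls became 0 with the *Crebbp* pools alone, with either technical array, with no filter, with all pools at the minimum or without any 1 pool, and 109 with linear averaging, 620 with the filter, 177 with quantile normalization, 212 with median centring and 876 with trend and robust moderation. Calls in both experiments were 0, as the *Ep300* count fixes, or 46 with the filter, and the 809 between experiments became 0 with the sign turned.

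The sample number is the contrast here, so the pairing by number of WT and mutant pools is the genotype term above. With the 16 arrays fitted singly and the technical number as a replicate block, calls were 2635 (2225 of them among the 2251), 72 for *Ep300*, 1033 for genotype and 19 in both experiments. The correlation estimated between the arrays of a pool was -0.18.

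List medians under the filter of the methods were -0.79 for HSC and sort genes, -0.86 for p53 targets (-0.056 with no filter, -0.44 to -0.25 without a *Crebbp* pool), 0.94 for immediate early genes and -0.74 for intronic probe sets in *Ep300* (-0.20 and -0.77 with the first and second technical arrays). Signs turned for erythroid genes (0.26 with the first arrays, 0.003 with no filter, -0.047 to 0.0455 without a pool), megakaryocyte genes (0.00125 with no filter), lymphoid genes (-0.22 with all pools at the minimum), sex-linked genes (-0.050 with every probe set) and imprinted genes (0.0017 with quantile normalization, 0.0099 with median centring, 0.011 with every probe set), and under the filter for DNA replication (-0.016), ribosomal proteins (-1.06) and splicing factors (-0.70). Fetal hepatocyte genes (-0.036 with all pools at the minimum, -0.083 without a WT pool), cholesterol synthesis (-0.0605 and -0.022 with the first and second arrays, -0.62 under the filter, -0.11 without a WT pool) and interferon response (-0.008 with the first arrays, -0.955 under the filter) turned as well. In all, 23 of 449 list medians turned, in 11 lists. Of 388 values for called genes 106 lost the call, and of 165 for *Ep300* genes 18 gained one. The causes were not tested.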

Other observations

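Other gene lists held a few calls each in the *Crebbp* experiment and no common direction. Of 15 cholesterol synthesis genes, *Fdps*, which makes farnesyl diphosphate, fell by 1.12 and *Stard4*, a sterol carrier, by 0.62, whereas the isomerase *Idi1* rose by 0.78. Of 23 glycolysis and hypoxia genes, the glucose transporter *Slc2a3* fell by 0.78 and *Pdk1*, which inhibits pyruvate dehydrogenase, by 0.81, and the hexokinase *Hk1* rose by 0.85. Of 28 genes of ER stress and ATF4, *Shmt2* rose by 0.67 and *Cebpb* by 0.83, and *Got1* fell by 0.85. Of 20 interferon response genes, *Irgm1* rose by 0.86 and *Ifih1* by 0.68, and *Xaf1* fell by 0.96. The medians of these 4 lists were 0.04, 0.07, 0.26 and 0.03. Called higher were 6.67%, 4.35%, 7.14% and 10% of them, beside 6.26% of all genes. Called lower were 13.3%, 8.7%, 3.57% and 5%, beside 9.69%. With so few calls, these shares are not read as results about the lists.

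The same 6.26% and 9.69% of all genes stand beside the shares that follow. *Impact*, an imprinted regulator of translation, fell by 1.09, in a list of 11 genes with 18.2% called lower. *Ppox*, an enzyme of heme synthesis, rose by 0.72 as the only call among 13 erythroid genes (7.69%). *Snhg4*, a snoRNA host gene, fell by 0.70 as the only call of its list of 13 (7.69%). The oxidative phosphorylation genes *Ndufs8* and *Cox6c* rose by 0.67 and 0.62 (2 of 56, 3.57%). *Kdm6a*, a histone demethylase of the X chromosome, rose by 0.80 as the only call among 7 sex-linked genes (14.3%).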
